A study of Mus musculus with 6 samples.

Results

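The FGF ligand and receptor genes of the neonatal mouse heart were followed between postnatal day 2 (P2, mice of 2 days of age) and postnatal day 1 (P1, mice of 1 day of age). The set held 10 genes, Fgf1, Fgf2, Fgf9, Fgf10, Fgf12, Fgf13, Fgf16, Fgfr1, Fgfr2 and Fgfr3, chosen by symbol from the 39171 gene rows of the deposited table. All 10 had a row. Polyadenylated RNA came from the heart ventricles of mice of the outbred CD-1 stock, wild type and not manipulated at either age, with 3 libraries at P2 and 3 at P1. The labels give 3 hearts per age without tying a library to an animal, and the spread behind each p-value is that between these libraries, which may be technical.

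Fibroblast growth factors fall into groups that act in different places. The secreted ligands, such as Fgf9, Fgf10 and Fgf16, bind heparan sulfate at the cell surface and pair receptor tyrosine kinases of the Fgfr family, which signal through the adaptor Frs2 to RAS and ERK and through Plcg1. Fgf1 and Fgf2 lack a classical signal peptide and leave cells by another route. Fgf12 and Fgf13 stay inside the cell, do not act through these receptors in the usual way, and bind the tails of voltage-gated sodium channels. In the developing mouse heart, Fgf9 and Fgf16 come from the epicardium and endocardium and support myocardial growth through Fgfr1 and Fgfr2.

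Close relatives in the set differ in their coding sequence, and 5 pairs were compared. They are shown because the length of the stretches that a pair shares bears on whether fragments of one gene could be assigned to the other. For each of 3 pairs, 120 bases of the coding sequence are shown, taken from the longest coding transcript in the GENCODE M21 transcripts of GRCm38, 5′ to 3′ on the gene's own strand, with the bases that differ within the pair in capitals. Each window is the ungapped one with the most matching bases in the pair's coding sequences. The 2 sodium channel partners differed at 28 of 120 bases (76.7% identical), and the longest identical run in their coding sequences was 14 bases.
Fgf12: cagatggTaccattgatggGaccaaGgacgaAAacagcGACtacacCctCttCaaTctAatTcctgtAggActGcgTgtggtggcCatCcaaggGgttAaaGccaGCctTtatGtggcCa
Fgf13: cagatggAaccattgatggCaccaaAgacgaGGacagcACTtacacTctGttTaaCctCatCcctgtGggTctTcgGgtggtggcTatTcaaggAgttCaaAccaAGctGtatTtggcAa

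The secreted ligand pair Fgf9 and Fgf16 differed at 24 of 120 bases (80.0% identical), with a longest identical run of 17 bases.
Fgf9: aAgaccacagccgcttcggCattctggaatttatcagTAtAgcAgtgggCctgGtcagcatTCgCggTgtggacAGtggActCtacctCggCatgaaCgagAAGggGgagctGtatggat
Fgf16: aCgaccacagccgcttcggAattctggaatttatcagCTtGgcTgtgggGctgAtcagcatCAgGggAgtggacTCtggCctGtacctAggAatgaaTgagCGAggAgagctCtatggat

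The receptors Fgfr1 and Fgfr3, in their kinase-coding part, differed at 15 of 120 bases (87.5% identical) and shared the longest identical run of the 5 pairs, 26 bases. The longest run was 20 bases for Fgfr1 and Fgfr2, which differed at 16 of 120 bases, and 17 bases for Fgfr2 and Fgfr3, which differed at 15 of 120.
Fgfr1: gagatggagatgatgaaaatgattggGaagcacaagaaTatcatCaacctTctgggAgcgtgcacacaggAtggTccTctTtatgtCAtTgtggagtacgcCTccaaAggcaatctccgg
Fgfr3: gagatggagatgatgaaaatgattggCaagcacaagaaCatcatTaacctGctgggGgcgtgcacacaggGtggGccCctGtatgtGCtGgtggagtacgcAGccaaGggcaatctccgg

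The values are FPKM, a fragment count divided by the length of the transcript and the size of the library, so levels of different genes are compared per length. The most frequent low value in genes with 1 transcript gave an estimated effective depth of 33800000, 34100000 and 36300000 fragments at P2 and 36300000, 36000000 and 37500000 at P1. The sum of FPKM was 807632 to 858436 at P2 and 716968 to 754510 at P1, and between 13355 and 13429 genes reached 1 FPKM per library. Marker sums of cardiomyocytes were 11375 to 12104 FPKM at P2 and 8621 to 8773 at P1. The gap between these sums is the value of Tnnt2, listed at 0 in all 3 P1 libraries, and without it the sums were 8695 to 8932 FPKM at P2 and 8621 to 8773 at P1, which overlap. Myh6 was listed at 0 in all 6 libraries, so a 0 in this table can be a failed estimate. Markers enriched in the atria, some of which neonatal ventricles also express, summed to 552 to 785 FPKM at P2 and 959 to 1513 FPKM at P1. Epicardial markers summed to 35.1 to 43.0 FPKM at P2 and 44.6 to 49.3 at P1, erythroid markers to 754 to 952 FPKM at P2 and 961 to 1358 at P1, and endothelial markers to 282 to 288 FPKM at P2 and 246 to 273 at P1. Fibroblast markers summed to 968 to 1140 FPKM at P2 and 893 to 1018 at P1, which overlap. Mural markers (456 to 477 at P2, 431 to 587 at P1) and macrophage markers (38.4 to 43.3 at P2, 40.2 to 47.6 at P1) overlapped too. Glial and neuronal markers summed to 4.58 to 5.84 FPKM at P2 and 5.85 to 6.18 at P1. Single genes also overlapped between the ages in lists whose sums did not, among them Nppa, Sln, Wt1, Tbx18, Hba-a1, Hbb-bs, Tek and Emcn. In bulk tissue, fewer cells of a type and less RNA per cell cannot be told apart.

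No FGF gene passed the test between the ages. Differences were tested with limma on log2(FPKM + 1) over 13624 genes (mean of 1 FPKM or more), and a gene was called at a Benjamini-Hochberg adjusted p under 0.05. Of the 10 genes, 9 reached this mean and 0 were called, against 0.161% of all tested genes (22 genes). None of the 9 had an unadjusted p under 0.05, against 18.6% of all tested genes. Every P2 library exceeded every P1 library for 0 of the 9, against 14.4% of tested genes, and every P2 library was under every P1 library for 0, against 10.6%. Of the 9 genes, 4 had a higher and 5 a lower mean log2 value at P2, with log2 changes from -0.35 to 0.13 and a median of -0.00, against a median of 0.01 over all tested genes. The adjusted p ranged from 0.560 to 0.991 (limma, Benjamini-Hochberg). An exact permutation test of 3 against 3 libraries cannot go below p = 0.10, so none is given. With each library scaled to an equal FPKM sum the median of all genes moved to -0.14. In that scaling 2433 of all tested genes were called, 2394 of them lower at P2, and 1 member, Fgfr1, was among them. The FPKM sum of nuclear protein-coding genes was 402631 to 420010 at P2 and 398176 to 406739 at P1, which overlap. With libraries scaled to that sum the median of all genes was -0.01, and 0 members were called. Leaving out single libraries turned the sign of the near-zero changes of Fgf1, Fgf2, Fgf9, Fgf13, Fgfr2 and Fgfr3.

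**Figure D1:**
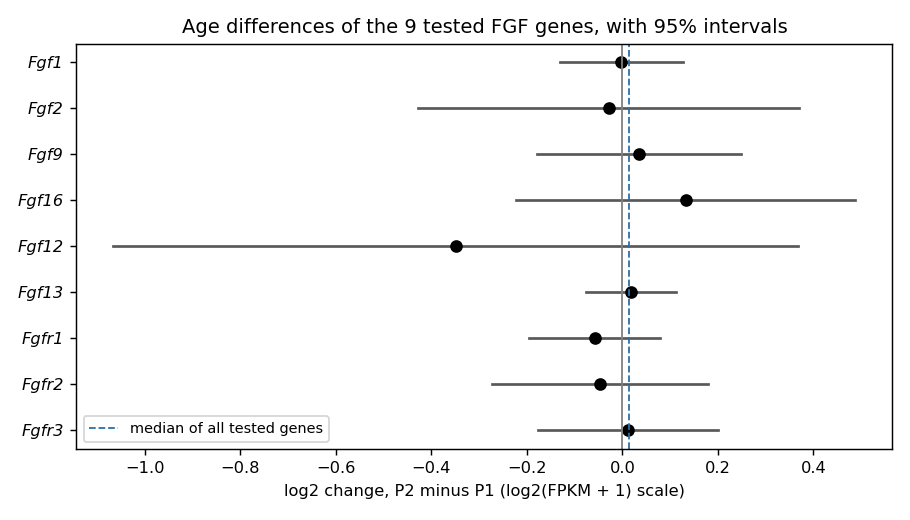
Log2 change of the 9 tested FGF genes, P2 minus P1, on the log2(FPKM + 1) scale, with 95% confidence intervals of limma. The dashed line is the median of all tested genes (0.01). All intervals include 0, and that of Fgf12 is the widest, from -1.07 to 0.37.

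Among secreted ligands, Fgf1 was the most abundant and had the smallest residual SD between libraries (0.0665 on the log2 scale). Fgf1, which binds all the receptors, was at 30.6, 30.2 and 29.3 FPKM at P2 and at 28.1, 30.5 and 31.8 FPKM at P1. The ages overlapped, and the P2 values lay within the range of the P1 values. The means were 30.1 ± 0.671 FPKM at P2 and 30.1 ± 1.90 FPKM at P1 (SD, n = 3 each), a log2 change of -0.00 with a standard error of 0.05 (95% interval -0.13 to 0.13, a fold of 0.914 to 1.09 of FPKM + 1; adjusted p = 0.991, limma with Benjamini-Hochberg). Fgf1 made up 74.1%, 74.3% and 74.0% of the summed FPKM of the secreted ligands in the set at P2 and 73.0%, 74.7% and 77.4% at P1. Its gene lies on chromosome 18 in GRCm38 and shares no 50-base word with another gene.

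Fgf9, which comes from epicardium and endocardium in the developing heart, was at 7.50, 6.51 and 5.78 FPKM at P2 and at 6.55, 6.08 and 6.52 FPKM at P1. The P2 values enclosed the P1 values. The log2 change was 0.03 with a standard error of 0.09 (95% interval -0.18 to 0.25; adjusted p = 0.862, limma with Benjamini-Hochberg), and it was -0.11 with equal FPKM sums, near the median of all genes in that scaling. Fgf9 lies on chromosome 14 from 58070547 to 58112720 on the forward strand in the GENCODE M21 annotation of GRCm38.

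Fgf16, its close relative on chromosome X (105764279 to 105774939, forward strand), was at 2.32, 2.80 and 3.32 FPKM at P2 and at 2.30, 3.09 and 2.06 FPKM at P1. The highest value was that of P2 replicate 3 and the lowest that of P1 replicate 3, and the ages overlapped. The log2 change was 0.13 with a standard error of 0.15 (95% interval -0.22 to 0.49, a fold of 0.857 to 1.40 of FPKM + 1). The adjusted p was 0.654 (limma with Benjamini-Hochberg). Leaving out P2 replicate 3 gave 0.0384 and leaving out P1 replicate 3 gave 0.0445, while leaving out P2 replicate 1 gave 0.23 and leaving out P1 replicate 2 gave 0.25. With 1 annotated transcript of 1645 bases, these values stand for an estimated 127 to 198 fragments per library.

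Fgf2, a widely expressed growth factor for fibroblasts and endothelium, was at 0.874, 1.06 and 1.17 FPKM at P2 and at 1.50, 1.10 and 0.692 FPKM at P1. The P1 values spanned more than a 2-fold range and enclosed the P2 values. The log2 change of FPKM + 1 was -0.03 with a standard error of 0.16 (95% interval -0.43 to 0.37; adjusted p = 0.944, limma with Benjamini-Hochberg). With a pseudocount of 0.1 the change was also -0.03, but the standard error was 0.305. The gene lies on chromosome 3 from 37348346 to 37410108, and 11.4% of its 50-base words (752 of 6623) occur in other genes, among them Nudt6 on the opposite strand, so its values may include fragments of Nudt6 and are uncertain.

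Fgf10, a ligand of Fgfr2 known from outflow tract and right ventricular development, was near the limit of detection. Its values were 0.0351, 0.0742 and 0.0224 FPKM at P2 and 0.0652, 0.0230 and 0.0289 FPKM at P1, an estimated 3.33 to 10.4 fragments per library. The ages overlapped, and the gene was not tested because its mean of 0.0415 FPKM was under 1. No difference between the ages was detectable at this depth. It lies on chromosome 13 from 118669791 to 118792115 and overlaps the antisense gene Gm16263, and the use of strand in counting is not given.

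**Figure D2:**
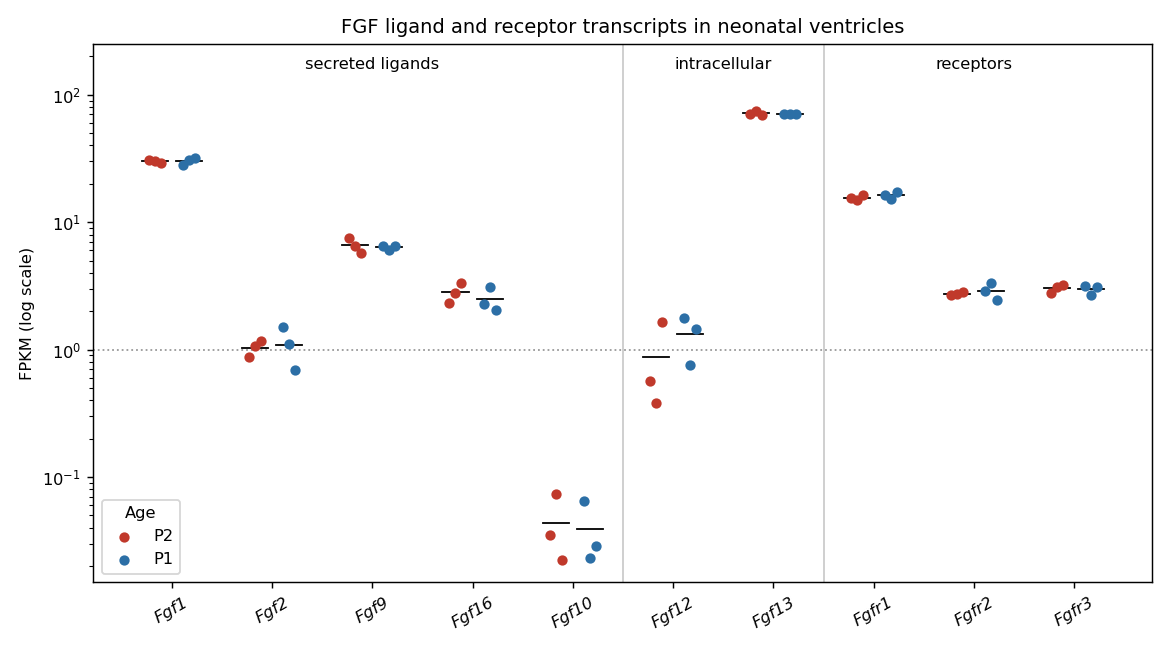
FPKM (log scale) of the 10 FGF genes in each library, with P2 left of P1 for each gene, horizontal bars at the mean of 3 libraries and a dotted line at the minimum mean of 1 FPKM. The genes run from Fgf13 at a mean of 71.1 FPKM over 6 libraries to Fgf10 at 0.0415, and for every gene the P2 and P1 points overlap.

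The intracellular member Fgf13 was the most abundant gene of the set. Fgf13, which in the mouse heart is the main sodium channel partner among the intracellular FGFs, was at 71.1, 74.5 and 69.0 FPKM at P2 and at 70.8, 70.4 and 70.6 FPKM at P1. The P2 values enclosed the P1 values, which lay close together. The means were 71.5 ± 2.79 FPKM at P2 and 70.6 ± 0.209 FPKM at P1 (SD, n = 3 each). The log2 change was 0.02 with a standard error of 0.04 (95% interval -0.08 to 0.11, a fold of 0.949 to 1.08 of FPKM + 1). The adjusted p was 0.832 (limma with Benjamini-Hochberg). The change was -0.15 with equal FPKM sums and -0.02 with quantile normalization. The residual SD of Fgf13 was 0.0392 on the log2 scale, larger than that of 14.1% of the 1837 tested genes within 2-fold of its level. Its gene lies on chromosome X from 59062145 to 59568071 on the reverse strand.

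Fgf12, the related sodium channel partner that is the main one in the human heart, was low and uneven between libraries of the same age. It was at 0.564, 0.383 and 1.66 FPKM at P2 and at 1.76, 0.761 and 1.44 FPKM at P1. P2 replicate 3 lay between the 2 highest P1 libraries and P1 replicate 2 was low, so the ages overlapped and the highest library stood 4.60-fold above the lowest. The means were 0.869 ± 0.691 FPKM at P2 and 1.32 ± 0.512 FPKM at P1 (SD, n = 3 each), a log2 change of -0.35 with a standard error of 0.29 (95% interval -1.07 to 0.37; adjusted p = 0.560, limma with Benjamini-Hochberg), and with a pseudocount of 0.1 it was -0.71. Without P2 replicate 2 the change was -0.16, and without P1 replicate 2 it was -0.54. Without P2 replicate 3 or P1 replicate 1 the mean of Fgf12 fell below 1 FPKM, so these runs gave no value. Its residual SD of 0.427 was larger than that of 94.2% of the 1615 tested genes within 2-fold of its level. The 3 tested genes with the most similar pattern over the 6 libraries were Psd4, Stard10 and Tmem163, with a root mean square difference of 0.153, 0.158 and 0.168 in centred log2 values. Fgf12 lies on chromosome 16 from 28160098 to 28753068 on the reverse strand.

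The library order of Fgf12 was that of some atrial markers. Sln, which encodes sarcolipin, was at 17.6, 5.76 and 40.5 FPKM at P2 and at 48.5, 27.6 and 37.4 FPKM at P1, and Dkk3 at 11.3, 10.2 and 13.8 FPKM at P2 and at 15.7, 11.6 and 13.2 FPKM at P1. Both ranked the 6 libraries exactly as Fgf12 did. Myl7 and Myl4 had the same rank as Fgf12 in 4 libraries, Nppa in 2 and Bmp10, the marker that passed the test (log2 change -0.92, adjusted p = 0.0306 in limma), in 0. The median log2 change of the 6 atrial markers was -0.96, and 6 of 6 were lower at P2. A fit chosen after seeing the data took the mean log2 value of the atrial markers other than Bmp10 as a covariate. The log2 change of Fgf12 was then 0.47 with a standard error of 0.25, of opposite sign to the fit without the covariate. The adjusted p was 0.811 (limma with Benjamini-Hochberg). The covariate markers were all lower at P2, and Sln and Dkk3 were among them. The covariate thus goes with age, and this fit cannot separate the 2. Whether atrial tissue contributed to the Fgf12 values was not tested.

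**Figure D3:**
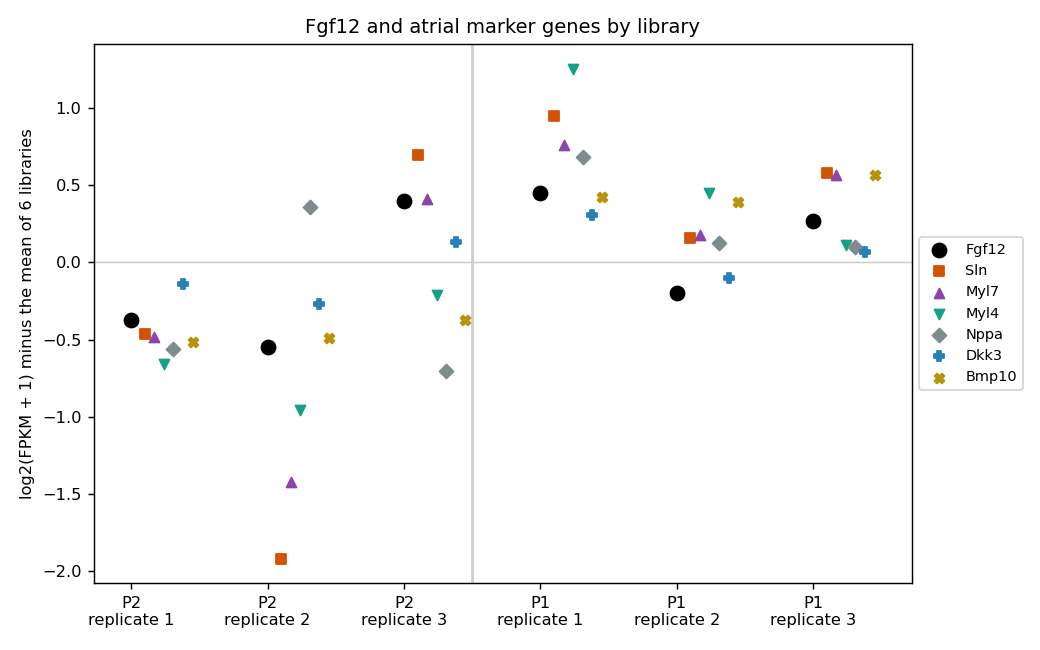
Fgf12 and 6 atrial marker genes in each of the 6 libraries, as log2(FPKM + 1) minus the gene's mean over the 6 libraries (y axis), with P2 libraries left of P1 libraries. Fgf12 is low in P2 replicates 1 and 2 and in P1 replicate 2 and high in the others, in the same library order as Sln and Dkk3.

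Fgf13 dominated the intracellular FGFs. It made up 93.8%, 96.0% and 93.3% of the summed FPKM of Fgf11 to Fgf14 at P2, and 92.5%, 94.1% and 93.7% at P1. The ratio of Fgf13 to Fgf12 was 126, 194 and 41.6 at P2 and 40.1, 92.5 and 49.0 at P1. Fgf13 differed by only 1.08-fold between its highest and lowest library, so the ratio mainly restates the Fgf12 values and is high where Fgf12 was low.

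Among receptors, Fgfr1 was the most abundant. Fgfr1 was at 15.5, 15.0 and 16.3 FPKM at P2 and at 16.3, 15.3 and 17.2 FPKM at P1. The ages overlapped, with the highest value in P1 replicate 3. The means were 15.6 ± 0.674 FPKM at P2 and 16.3 ± 0.978 FPKM at P1 (SD, n = 3 each). The log2 change was -0.06 with a standard error of 0.06 (95% interval -0.20 to 0.08, a fold of 0.874 to 1.06 of FPKM + 1). The adjusted p was 0.613 (limma with Benjamini-Hochberg). With equal FPKM sums the log2 change was -0.22 and the adjusted p 0.0484, while the median of all genes was -0.14. Leaving out 1 library moved the change to between -0.10 (without P1 replicate 2) and -0.0186 (without P1 replicate 3). Fgfr1 lies on chromosome 8 from 25513654 to 25575718 and overlaps the antisense gene Gm16159. Odf2l, Clpb and Crbn had the most similar pattern over the 6 libraries, with root mean square differences of 0.0121, 0.0178 and 0.0183 among 12009 genes searched.

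Fgfr2, the receptor of Fgf10 and Fgf9, was at 2.69, 2.74 and 2.83 FPKM at P2 and at 2.88, 3.32 and 2.47 FPKM at P1. The P2 values lay within the range of P1. The log2 change was -0.05 with a standard error of 0.09 (95% interval -0.27 to 0.18; adjusted p = 0.813, limma with Benjamini-Hochberg). The annotated gene lies on chromosome 7 from 130162451 to 133123350, a span that takes in 69 other genes, and 4.84% of its 50-base words occur in another gene, Ctbp2.

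Fgfr3, known for restraining bone growth, was at 2.78, 3.09 and 3.20 FPKM at P2 and at 3.17, 2.69 and 3.12 FPKM at P1. The highest value belonged to P2 and the lowest to P1, with the other values between. The log2 change was 0.01 with a standard error of 0.08 (95% interval -0.18 to 0.20; adjusted p = 0.952, limma with Benjamini-Hochberg), and it was -0.12 with equal FPKM sums. It lies on chromosome 5 from 33721674 to 33737068, and 8.67% of its 50-base words occur in other genes, among them G630022F23Rik on the opposite strand. Fgfr1 held 73.5%, 71.3% and 72.7% of the summed FPKM of Fgfr1 to Fgfr4 at P2 and 72.2%, 71.6% and 75.3% at P1.

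In the order of mean FPKM over 6 libraries, Fgf13 (71.1) was followed by Fgf1 (30.1), Fgfr1 (15.9), Fgf9 (6.49), Fgfr3 (3.01), Fgfr2 (2.82), Fgf16 (2.65), Fgf12 (1.10), Fgf2 (1.06) and Fgf10 (0.0415). Fgfr3 overlapped with Fgfr2 and Fgfr2 with Fgf16, with Fgfr3 above Fgfr2 in 5 of 6 libraries and Fgfr2 above Fgf16 in 4 of 6. Fgf12 and Fgf2 also overlapped, with Fgf12 higher in 3 of 6 libraries. The other neighbours did not overlap in any library.

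**Figure D4:**
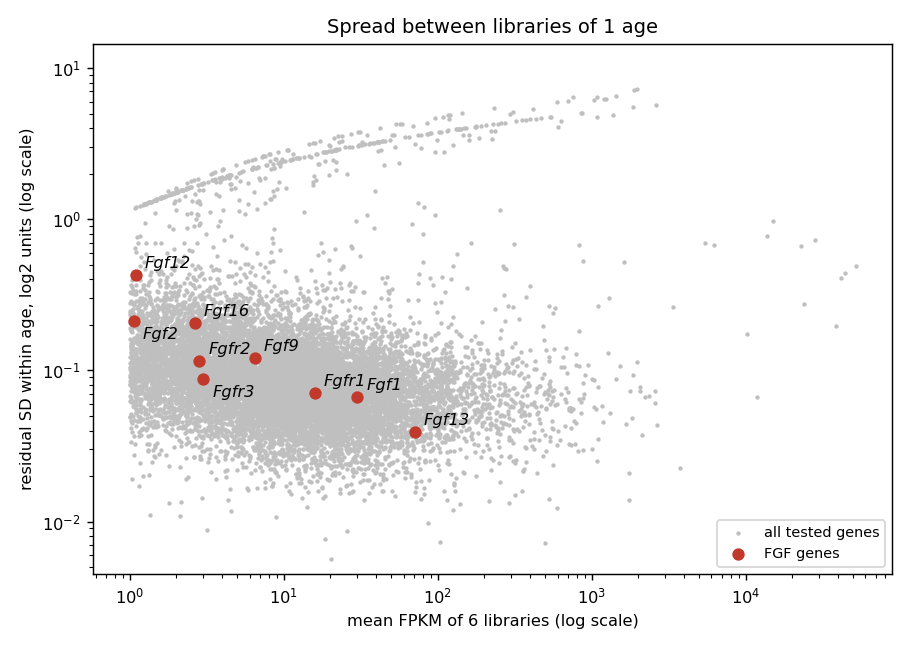
Residual SD of log2(FPKM + 1) within age (y axis, log scale) against mean FPKM over 6 libraries (x axis, log scale) for all tested genes (grey) and the 9 tested FGF genes (red). Fgf12 lies above most genes of its level, at 0.427, and Fgf13 below most, at 0.0392.

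No gene of the wider FGF pathway was called, in 7 lists, against 0.161% of all tested genes. Equal FPKM sums moved the medians of the 7 lists to between -0.32 and -0.08, beside -0.14 for all genes. In that scaling 15 list genes were called, all lower at P2, beside 2433 of all tested genes, 2394 of them lower. Of 15 other FGF ligands, 2 were tested and 13 were below the minimum, of which 2 were at 0 in all libraries. Fgf18, a ligand of cartilage and bone development, was at 5.56, 4.40 and 4.67 FPKM at P2 and at 4.31, 3.64 and 3.90 FPKM at P1, with all P2 values above all P1 values (log2 change 0.24, standard error 0.09; adjusted p = 0.246, limma with Benjamini-Hochberg). Fgf11, an intracellular FGF, was at 3.47, 2.29 and 2.67 FPKM at P2 and at 3.45, 3.26 and 2.85 FPKM at P1, with overlapping ages and a log2 change of -0.14 (adjusted p = 0.575 in limma).

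Of 11 other receptors, co-receptors and binding proteins, 5 were tested, with 1 higher and 4 lower at P2, all P2 values below all P1 values for 2 (10.6% of all tested genes) and above for 0 (14.4%). Their median log2 change was -0.15, against 0.01 for all tested genes. Over all 11 genes, with no filter on low values, the median was -0.0456, and with a filter of 5 FPKM it was -0.11. Cdh2, N-cadherin, which binds Fgfr1, was at 121, 119 and 130.3 FPKM at P2 and at 136.5, 135 and 139.6 FPKM at P1 (log2 change -0.15; limma, Benjamini-Hochberg adjusted p = 0.183). Fgfbp3, a carrier of secreted FGFs, was at 1.00, 1.16 and 1.31 FPKM at P2 and at 1.50, 1.75 and 1.43 FPKM at P1 (-0.25, adjusted p = 0.265 in limma). In both genes the ages did not overlap. Fgfrl1, a receptor that lacks a kinase domain, had a log2 change of -0.20 and Ncam1 one of -0.06, with adjusted p of 0.335 and 0.560 in limma.

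The 22 heparan sulfate carriers and enzymes were all tested, 11 higher and 11 lower, with a median of 0.00. All P2 values lay above P1 for 1 gene and below for 1, against 14.4% and 10.6% of all tested genes. Glypican 3 (Gpc3), a heparan sulfate carrier, was at 42.0, 43.3 and 51.3 FPKM at P2 and at 51.6, 61.2 and 61.9 FPKM at P1. All P2 libraries were lower than all P1 libraries, and the log2 change was -0.35 with a standard error of 0.10 (adjusted p = 0.177, limma with Benjamini-Hochberg). Syndecan 1 (Sdc1) was at 11.7, 13.1 and 13.1 FPKM at P2 and at 10.3, 11.1 and 11.0 FPKM at P1, with all P2 values higher (0.21, adjusted p = 0.167 in limma). Hs6st1, which sulfates heparan sulfate, was 0.16 lower on the log2 scale at P2 and Sdc2 0.12 higher, with adjusted p of 0.245 and 0.339 in limma.

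Downstream of the receptors, 11 of 11 adaptors were tested, 4 higher and 7 lower, with a median of -0.04, and P2 lay wholly above P1 for 1 and wholly below for 2, against 14.4% and 10.6% of all tested genes. Plcg1, phospholipase C gamma, was at 28.2, 29.8 and 31.4 FPKM at P2 and at 33.3, 35.9 and 32.0 FPKM at P1, with all P2 values lower (-0.17, adjusted p = 0.214 in limma). The adaptor Crk was at 57.7, 63.6 and 58.3 FPKM at P2 and at 52.8, 51.6 and 56.1 FPKM at P1, with all P2 values higher (0.16, adjusted p = 0.214 in limma). Crkl and Shc1 had log2 changes of 0.08 and -0.09 (adjusted p = 0.374 and 0.383 in limma). The 10 RAS-ERK kinases were 6 higher and 4 lower, with a median of 0.01. All P2 values lay above P1 for 0 of them and below for 0, against 14.4% and 10.6% of all tested genes. Map2k2, a kinase that activates ERK, had a log2 change of -0.07 (adjusted p = 0.452 in limma).

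Transcriptional targets and feedback inhibitors of ERK gave 7 higher and 8 lower among 15 tested genes, with a median of -0.03, and Spry3 had no row. P2 lay wholly above P1 for 2 and wholly below for 2, against 14.4% and 10.6% of all tested genes. Etv4, an ETS factor induced by FGF signalling, was at 4.15, 4.20 and 3.50 FPKM at P2 and at 4.57, 5.75 and 5.38 FPKM at P1, all P2 values lower (log2 change -0.33, standard error 0.10; adjusted p = 0.177, limma with Benjamini-Hochberg). Dusp5, a phosphatase of ERK, was at 4.55, 4.91 and 4.133 FPKM at P2 and at 3.72, 3.95 and 4.125 FPKM at P1, all P2 values higher by a narrow margin (0.16, adjusted p = 0.285 in limma). Cblb, a ubiquitin ligase that limits receptor signalling, was 0.19 lower at P2 on the log2 scale, and Spry1, an inhibitor of the pathway, 0.09 higher, with adjusted p of 0.194 and 0.340 in limma. For both genes the ages did not overlap.

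**Figure D5:**
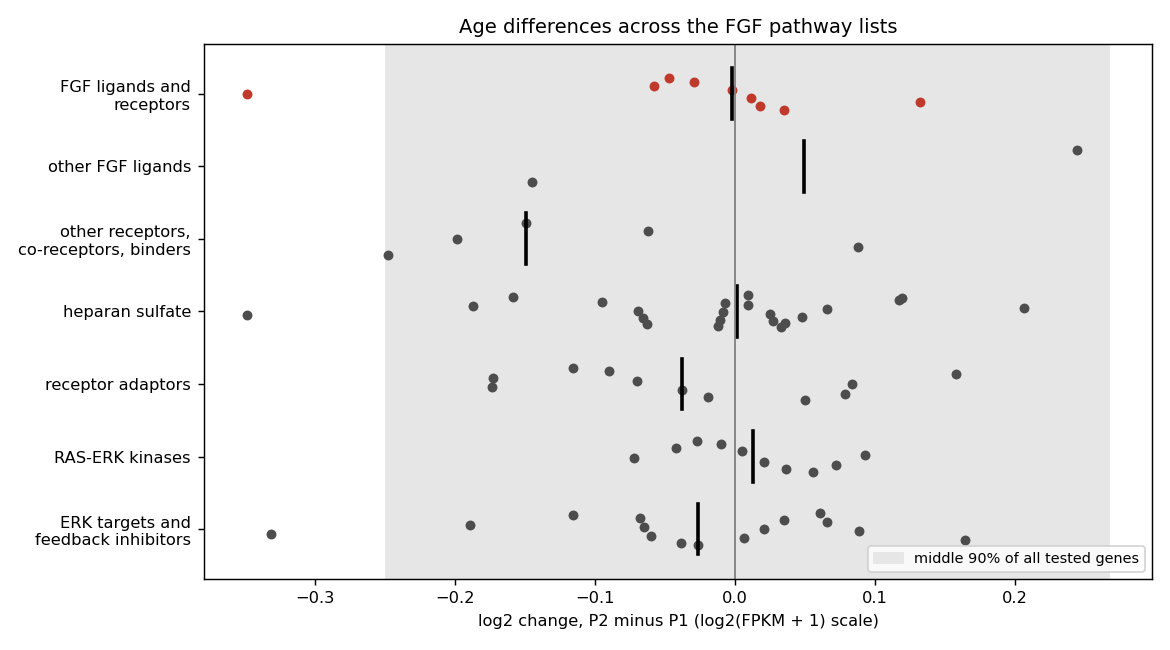
Log2 change P2 minus P1 of the tested members of 6 FGF pathway lists (grey) below the 9 tested FGF genes (red), 1 point per gene, with a bar at each median and the middle 90% of all tested genes shaded (-0.25 to 0.27). The medians of the 6 lists lie between -0.15 and 0.05, and no point is a called gene.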

How the data were processed

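The authors deposited 1 table of FPKM values for 6 ventricular libraries, 3 at P2 and 3 at P1; per the submitters' processing notes TopHat2 and Cuffdiff 2.2.1 and R 3.2 were among the tools used. No source used here gives the genome build, annotation, read length or use of strand. Symbols and positions are those of GENCODE M21 (GRCm38), where 37605 of 39171 gene identifiers matched. The members and all lists were chosen with earlier results of these data known. limma 3.58.1 (R 4.3.3) was fitted to log2(FPKM + 1) with a variance trend, over 13624 genes (mean of 1 FPKM or more), and p-values were adjusted by the Benjamini-Hochberg method over them. The log2(FPKM + 1) scale understates the change of low genes. Named genes were the 10 members, called members of each list or, where none was called, up to 4 with the smallest p, and the 3 most similar genes to the 2 members with the smallest p. Some genes that this rule named are not reported here. Alternatives were another pseudocount, filter, scaling, variance model, weighting and threshold, a replicate block, each library left out, and an atrial covariate that was added after seeing the data. Effective depth was estimated from the value of 1 fragment in genes with 1 transcript; FPKM carries no counts, so this is an estimate and no counting interval is given. Plots used Python 3.11.15, pandas 2.3.3, numpy 2.4.6 and matplotlib 3.10.9.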

Additional observations from a re-analysis of the deposited data

How the results depend on the processing

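Over all genes, 22 were called, against 40 with a pseudocount of 0.1, 41 with a filter of 5 FPKM, 14 without the variance trend, 111 without genes at 0 in any library and 104 at a threshold of 0.10. Leaving out 1 library gave 5 to 25 calls: 5 without P1 replicate 1 or P1 replicate 2, 11 without P2 replicate 1 and 12 without P2 replicate 2. With equal FPKM sums 2433 were called, 2394 of them lower at P2, and the median of all genes was -0.14. In that scaling 1 FGF gene (Fgfr1) and 15 pathway list genes were called, all lower. In each other alternative run 0 FGF genes were called. List genes were not counted at the threshold of 0.10 or with the atrial covariate, and 0 were called in the remaining runs. With the replicate number as a block, 5 genes and 0 FGF genes were called. Each library's deviations from the gene means of its age were correlated across ages. The correlations were -0.011, 0.101 and 0.00933 for same-numbered libraries and -0.0753 to 0.0696 for the others. The labels do not say that the numbers pair the libraries, and no pairing was assumed. The log2 changes that turned sign were as follows. With equal sums Fgf9 was -0.11, Fgf13 -0.15 and Fgfr3 -0.12. With an equal protein-coding sum Fgf13 was -0.0114 and Fgfr3 -0.0104, and with quantile normalization Fgf13 was -0.0151 and Fgfr3 -0.0079. With the atrial covariate, added after seeing the data and itself lower at P2, Fgf2 was 0.20, Fgf9 -0.036, Fgf12 0.47, Fgf13 -0.0426 and Fgfr1 0.0285. With each library left out the log2 change ranged from -0.0498 to 0.0376 for Fgf1, -0.17 to 0.0288 for Fgf2, -0.0492 to 0.11 for Fgf9, -0.54 to -0.16 for Fgf12, -0.0115 to 0.0433 for Fgf13, 0.0384 to 0.25 for Fgf16, -0.10 to -0.0186 for Fgfr1, -0.13 to 0.0326 for Fgfr2 and -0.0444 to 0.0552 for Fgfr3. Without P1 replicate 1, Fgf12 and Fgf2 fell below 1 FPKM and gave no value, as did Fgf12 without P2 replicate 3. The ranges of Fgf12 and Fgf2 leave those runs out. With the filter of 5 FPKM, Fgf1, Fgf9, Fgf13 and Fgfr1 were tested. The causes were not tested.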
